A study of Mus musculus with 4 samples.

Results

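The tumour suppressor gene Trp53 and 6 genes whose products set the level and activity of the p53 protein were followed in LSK cells of old mice. The genes were found by symbol in the deposited count table: 7 rows of 24421 matched, since Cop1 is listed there under its earlier symbol Rfwd2 and the 8 symbols searched for include both names. LSK cells, sorted from bone marrow as negative for lineage markers and positive for Sca1 and Kit, are the fraction that contains the hematopoietic stem cells. They came from 2 kinds of mice aged 13 to 15 months, carrying either 1 mutant and 1 normal copy of Trp53 (p53R248W/+, 2 libraries) or only normal copies (WT, 2 libraries), and mRNA was sequenced. R248W replaces an arginine that touches DNA in the p53 core domain by tryptophan. The labels give no treatment, do not say how the mutant allele was built, and do not say whether the 2 libraries of a genotype came from separate mice. The p-values therefore reflect how these libraries scatter, which could be technical only. A Trp53 count does not separate the normal from the mutant allele. Whether reads of the mutant allele map to the mouse exons as well as normal reads was not tested. That limit holds for every Trp53 level and for each ratio to Trp53 below.

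In unstressed cells p53 is made continuously and destroyed almost as fast. The ubiquitin ligase Mdm2, bound to its partner Mdm4, marks p53 for the proteasome, and the ligase encoded by Rfwd2 (COP1) does so as well. Usp7 removes ubiquitin from both p53 and Mdm2. After DNA damage, kinases such as Hipk2 phosphorylate p53 and release it, and the phosphatase encoded by Ppm1d (WIP1) reverses such marks and returns the pathway to rest. Mdm2 and Ppm1d are themselves switched on by p53, which closes a negative feedback loop. In hematopoietic stem cells p53 is known for maintaining quiescence and for limiting the survival of damaged cells.

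The codon that corresponds to the residue in the label and the gene starts that carry a p53 half-site are printed first. The codon is that of the mouse reference, and the labels do not say whether the mutant allele was built on this sequence. The windows show where the letters of a half-site stood. The number in R248W follows the human protein. In the mouse reference the corresponding arginine is residue 245 of 390, read from exon 7 of the GENCODE M21 transcript Trp53-201, with its codon at chr11:69589219-69589221 on the plus strand of mm10. It lies in exon block 7 of the deposited gene model (69589141 to 69589250). The reference codon is shown in capitals, with 12 bases on either side.

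Trp53 codon 245: gggggcatgaacCGCcgacctatcctt

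RefSeq start-site windows of 300 bases (GRCm38.p6, 250 bases before and 50 after a start) were found for all 7 genes, 9 windows in all. The p53 half-site, the 10-base unit that p53 dimers bind, reads the same on both strands and was searched by its consensus without mismatches. It was present in the windows of 3 of the 7 genes, Trp53, Mdm2 and Ppm1d, once in each, against 9.55% of the 27025 genes with a window and 8.36% of the 32851 windows. The windows of Mdm4, Rfwd2, Usp7 and Hipk2 did not hold these letters. The half-site began 75 bases before the start in Trp53, 186 before it in Mdm2 and 132 before it in Ppm1d. The windows are printed in the direction of transcription with the half-site in capitals. They are chr11:69580109-69580408 (plus strand) for Trp53, chr10:117710709-117711008 (minus strand) for Mdm2 and chr11:85311004-85311303 (plus strand) for Ppm1d. A match describes the letters and does not show binding.

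Trp53: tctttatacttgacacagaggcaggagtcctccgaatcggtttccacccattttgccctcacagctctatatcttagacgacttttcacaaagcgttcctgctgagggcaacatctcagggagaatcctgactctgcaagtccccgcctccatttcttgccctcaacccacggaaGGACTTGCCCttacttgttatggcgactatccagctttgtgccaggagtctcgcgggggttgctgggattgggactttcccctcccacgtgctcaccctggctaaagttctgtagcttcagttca

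Mdm2: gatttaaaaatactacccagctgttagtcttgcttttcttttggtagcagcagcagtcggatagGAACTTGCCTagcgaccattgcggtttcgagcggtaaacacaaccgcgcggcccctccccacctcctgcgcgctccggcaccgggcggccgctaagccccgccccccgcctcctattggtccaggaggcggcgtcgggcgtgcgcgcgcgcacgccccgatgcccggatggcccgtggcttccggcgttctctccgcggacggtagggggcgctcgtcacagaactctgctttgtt

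Ppm1d: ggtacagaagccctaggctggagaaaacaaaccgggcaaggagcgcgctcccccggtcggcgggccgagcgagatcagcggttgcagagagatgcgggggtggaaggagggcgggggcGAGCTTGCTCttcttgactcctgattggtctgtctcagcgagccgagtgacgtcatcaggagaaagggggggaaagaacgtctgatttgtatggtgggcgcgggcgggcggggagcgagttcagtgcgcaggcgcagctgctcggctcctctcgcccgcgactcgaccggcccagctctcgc

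The libraries held 14820759 and 12111126 counted reads for p53R248W/+ and 14544290 and 14109906 for WT. Levels are given as CPM, the count scaled to a common library size after TMM normalisation. All 9 genes of an LSK marker list were detected in every library. Kit was at 1182 and 1105 CPM in p53R248W/+ and 911 and 998 CPM in WT, and Ly6a, the gene of Sca1, at 81.1 and 70.8 CPM in p53R248W/+ and 40.2 and 82.9 CPM in WT. The summed level of the 9 was 4346 and 4021 CPM in p53R248W/+ against 3291 and 3636 CPM in WT, higher in both p53R248W/+ libraries. Markers of lymphoid cells were near 0: the sum of 3 B cell markers was 5.26 and 2.56 CPM in p53R248W/+ and 1.60 and 0.912 CPM in WT, and that of 3 T cell markers 1.89 and 2.07 CPM in p53R248W/+ and 0.628 and 1.33 CPM in WT. The 3 granulocyte and monocyte markers with a row summed to 97.3 and 82.9 CPM in p53R248W/+ and 112 and 65.7 CPM in WT, so the genotypes overlapped. The sum of 4 endothelial and stromal markers was 107 and 101 CPM in p53R248W/+ and 70.4 and 50.9 CPM in WT. Nearly all of this last sum was Pecam1, which hematopoietic cells also express, and Cxcl12 was at 0 in every library. Of the 4 erythroid markers, Hbb-b1, Hbb-bs and Hba-a1 were listed at 0 in every library. These genes have near-identical copies, and whether that bears on the 0 was not tested. The part of these differences in the results below was not tested, and in bulk RNA fewer cells of a type and less RNA per cell cannot be told apart.

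Every one of the 7 genes was well covered, with 764 to 12275 counts per library, and together they took 0.179% to 0.215% of the counts. No exon base counted for the 7 belonged to another gene, either in the deposited gene models or in GENCODE M21. An M21 transcript of Hipk2 matched one of Ubn2, also on chromosome 6, over 472 bases at 100% identity. Whether this stretch lies in the deposited Hipk2 exons was not tested. Some of the 7 genes have copies elsewhere in the genome that reads could match. Among M21 transcripts, with a minimum of 300 aligned bases, Trp53 matched the processed pseudogene Trp53-ps on chromosome 17 (94.8% identity over 1090 bases), Mdm4 matched Mdm4-ps on chromosome X (94.1% over 4187 bases), and Rfwd2 matched 13 processed pseudogenes, the closest being Gm6206 on chromosome X (99.7% over 2202 bases). None of these has a row in the table, and the sources used here do not give the handling of multi-mapping reads, so the Rfwd2 count in particular is less certain. Usp7 matched 1 processed pseudogene over 316 bases, and Mdm2 and Ppm1d had no such match. The deposited models covered all 1868 exon bases of the protein-coding Trp53 transcripts in M21, 98.5% of those of Mdm2, 97.4% of Rfwd2, 93.2% of Usp7 and 91.0% of Ppm1d. They covered 66.3% for Mdm4 and 56.4% for Hipk2, so the remaining 3673 and 3450 bases of those transcripts added nothing to the counts.

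Per length of transcript, Trp53 was the most abundant of the 7. To compare genes with each other, counts were divided by the deposited exon length and by the scaled library size, which gives RPKM. Trp53 (chromosome 11, 69580359 to 69591873, plus strand, 11 exon blocks) was at 131 and 178 RPKM in p53R248W/+ and 194 and 162 RPKM in WT, a mean over the 4 libraries of 166 RPKM that lay at percentile 98.4 of the 13296 tested genes. Mdm4 followed with a mean of 107 RPKM and a highest library of 117 RPKM. Mdm2 (48.3 to 64.8 RPKM) and Usp7 (51.3 to 65.8 RPKM) came next and overlapped each other. Hipk2 (27.5 to 46.3 RPKM) and Rfwd2 (25.7 to 37.8 RPKM) overlapped too, and Ppm1d was lowest at 17.9 to 26.2 RPKM, percentile 72.9, overlapping the lowest Rfwd2 library. The ranges of Trp53, Mdm4, the Mdm2 and Usp7 pair and the Hipk2 and Rfwd2 pair did not overlap. With the exon lengths of the M21 protein-coding transcripts, an alternative added after the data were seen, the Mdm4 mean was 72.4 in place of 107 RPKM and the Hipk2 mean 19.6 in place of 34.0 RPKM, below Ppm1d at 19.8 RPKM. The counts still came from the deposited exons only, so these changes follow from the length alone. They are not a second estimate of the level, and they do not settle the order of Hipk2 and Ppm1d.

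**Figure D1:**
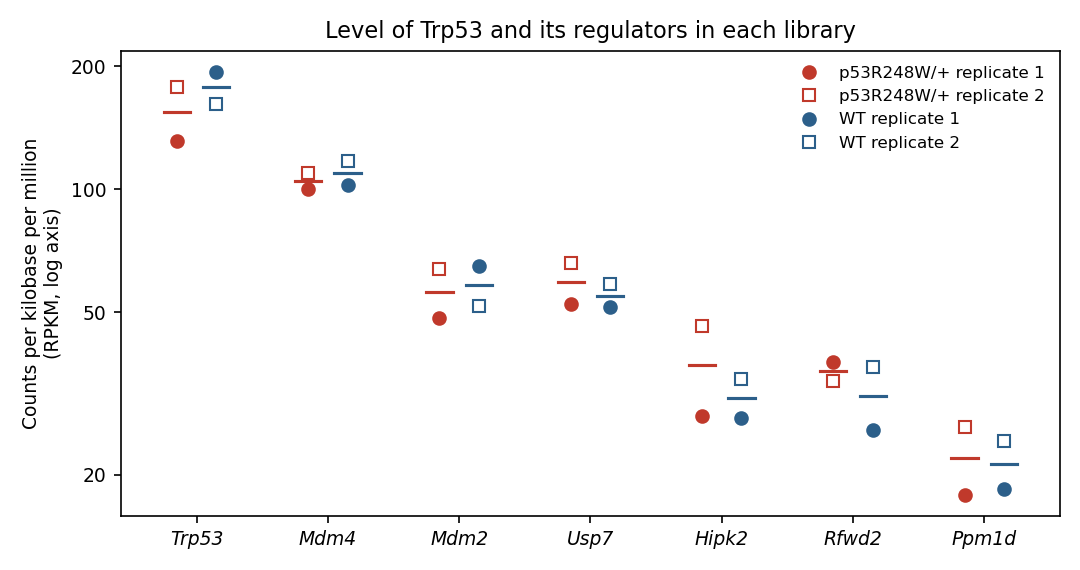
Level of each of the 7 genes in every library, in RPKM (log axis); red marks are the p53R248W/+ libraries, blue marks the WT libraries, circles replicate 1, open squares replicate 2 and bars the mean of the 2 libraries. Trp53 is highest at 131 to 194 RPKM and Ppm1d lowest at 17.9 to 26.2 RPKM, and the genotypes overlap for every gene.

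The comparison of p53R248W/+ with WT asks whether a mutant allele is accompanied by a different amount of Trp53 mRNA or of the mRNAs for its regulators. None of the 7 genes differed beyond the spread between libraries. None passed an adjusted p of 0.05 in the edgeR quasi-likelihood test, where 0% of the 13296 tested genes did. None had an unadjusted p under 0.05 in that test, where 5.87% of all tested genes did (780 genes). That count fell or rose depending on which library was left out. DESeq2 called 6 genes and limma-voom 0, none of them among the 7. The p53R248W/+ and WT libraries overlapped for all 7, whereas they did not overlap for 33.6% of all tested genes. The log2 fold change was positive for 4 and negative for 3, from -0.21 to 0.25, with a median of 0.03 beside a median of -8.81e-05 over all tested genes. For all 7 the larger gap between 2 libraries of the same genotype exceeded the fold change between genotypes. A gap between single libraries is set there against a difference of means, and the share over all tested genes was not counted. The comparison therefore does not set these 7 genes apart. With so few libraries the intervals below say more than the p-values about how large a difference could have been missed. They rest on the same spread between libraries as the p-values, and would be too narrow if that spread is technical only.

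Trp53 itself was at 245 and 332 CPM in p53R248W/+ and at 362 and 302 CPM in WT. The lowest library was p53R248W/+ replicate 1 and the highest WT replicate 1, while p53R248W/+ replicate 2 lay above WT replicate 2, so the genotypes overlapped. The means were 289 ± 62.0 CPM in p53R248W/+ and 332 ± 42.0 CPM in WT (SD, n = 2 each), a log2 fold change of -0.21 ± 0.19 (SE; adjusted p = 0.895, edgeR quasi-likelihood test). The 95% interval ran from -0.60 to 0.19, that is from 0.660 to 1.14 times the WT level. The value rested on p53R248W/+ replicate 1: without that library it was 0.0023. It was -0.44 when p53R248W/+ replicate 2 was left out, and leaving out a WT library gave -0.07 (replicate 1) or -0.32 (replicate 2).

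The genes that keep p53 low showed the same lack of a separation. Mdm2 (chromosome 10, 117688875 to 117710758), the main ubiquitin ligase of p53, was at 150 and 198 CPM in p53R248W/+ and at 201 and 160 CPM in WT, so that each genotype had a low and a high library. Its log2 fold change was -0.06 ± 0.22 (SE; adjusted p = 0.981, edgeR quasi-likelihood test), with an interval from 0.699 to 1.31 times WT. It was 0.13 without p53R248W/+ replicate 1 and 0.11 without WT replicate 1.

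Mdm4 (chromosome 1, 132986105 to 133030587), the relative of Mdm2 that binds p53 and restrains it, was at 736 and 803 CPM in p53R248W/+ and at 751 and 861 CPM in WT. It was the steadiest of the 7, with a within-genotype SD of 0.12 on the log2 scale beside a median of 0.39 over all tested genes. Its log2 fold change was -0.07 ± 0.14 (SE; adjusted p = 0.963, edgeR quasi-likelihood test), and the interval, from 0.780 to 1.17 times WT, was the narrowest of the 7. Without WT replicate 2 the value was 0.04.

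Rfwd2 (chromosome 1, 159232326 to 159347580), the gene of the ligase COP1, was at 191 and 171 CPM in p53R248W/+ and at 130 and 186 CPM in WT. WT replicate 1 was low and the other libraries lay close together. The log2 fold change was 0.20 ± 0.22 (SE; adjusted p = 0.921, edgeR quasi-likelihood test), with an interval from 0.835 to 1.58 times WT, and it was -0.04 without WT replicate 1.

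The deubiquitinase, phosphatase and kinase genes did not separate either. Usp7 (chromosome 16, 8688722 to 8738342) was at 285 and 357 CPM in p53R248W/+ and at 278 and 317 CPM in WT. In both genotypes replicate 1 was the lower library. The log2 fold change was 0.10 ± 0.18 (SE; adjusted p = 0.959, edgeR quasi-likelihood test), with an interval from 0.830 to 1.39 times WT, and it was -0.07 without p53R248W/+ replicate 2.

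Ppm1d (chromosome 11, 85311254 to 85347071), the p53-induced phosphatase, had the lowest counts of the 7, at 51.7 and 75.7 CPM in p53R248W/+ and 53.3 and 69.9 CPM in WT. Each genotype again had a lower replicate 1. Its log2 fold change was 0.03 ± 0.31 (SE; adjusted p = 0.994, edgeR quasi-likelihood test), with an interval from 0.647 to 1.62 times WT. Leaving out p53R248W/+ replicate 2 gave -0.25 and leaving out WT replicate 1 gave -0.14.

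Hipk2 (chromosome 6, 38697840 to 38876190), a nuclear kinase that phosphorylates p53 after damage, was at 127 and 212 CPM in p53R248W/+ and at 126 and 156 CPM in WT. The value of 212 CPM in p53R248W/+ replicate 2 stood above the other libraries. Hipk2 had the largest spread of the 7, with a within-genotype SD of 0.40 on the log2 scale. Its log2 fold change of 0.25 ± 0.25 (SE; adjusted p = 0.903, edgeR quasi-likelihood test) was the largest of the 7, with an interval from 0.832 to 1.71 times WT, and it was -0.15 without p53R248W/+ replicate 2.

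**Figure D2:**
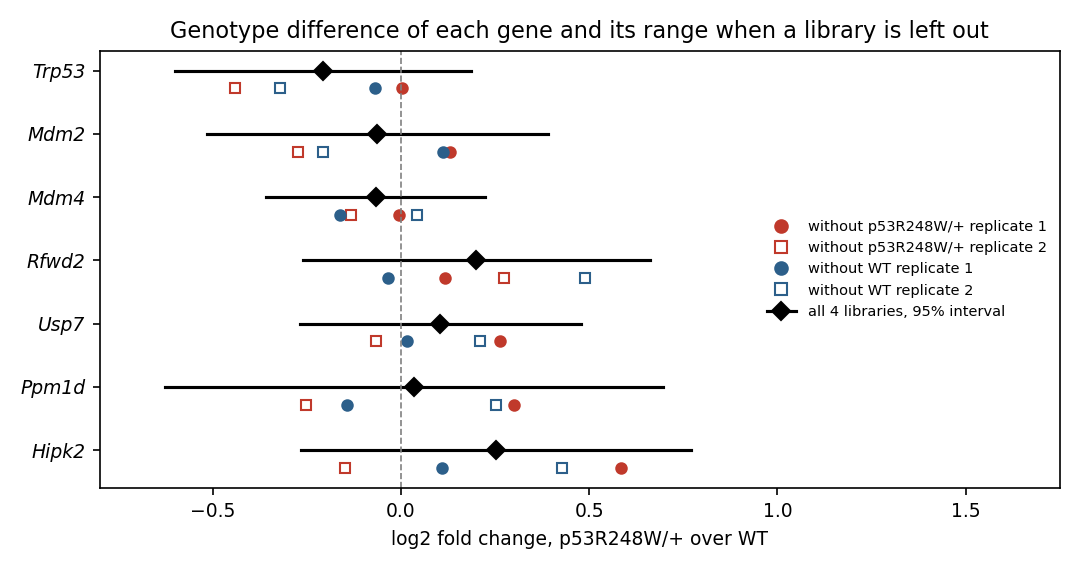
log2 fold change of p53R248W/+ over WT for each gene; black diamonds with bars are the value from all 4 libraries and its 95% interval, and the coloured marks below are the values with 1 library left out. Every interval includes 0, and the marks of all 7 genes fall on both sides of 0.

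The 7 genes fell into different patterns over the libraries. Trp53 and Mdm2 varied together: both were lowest in p53R248W/+ replicate 1 and highest in WT replicate 1. The pattern was compared as the root mean square difference of log2 CPM, each gene set to its own mean over the 4 libraries. By this measure Trp53 and Mdm2 differed by 0.0806, the closest of the 21 pairs among the 7 genes. Only 114 of the 7372 other genes with a mean of at least 20 CPM (1.55%) were nearer to Trp53 than Mdm2 was, where the median gene differed by 0.305. Mdm4, Usp7, Ppm1d and Hipk2 were instead lower in replicate 1 than in replicate 2 of both genotypes, and Rfwd2 was lower in replicate 1 only in WT. The nearest of these pairs were Mdm4 with Usp7 (0.109), Usp7 with Ppm1d (0.111) and Ppm1d with Hipk2 (0.118), and Rfwd2 was the farthest from Trp53 at 0.409. The 4 libraries are shared by all genes, so these likenesses describe the libraries and carry no test.

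Of the 7366 tested genes at that level outside the 7, those nearest to Trp53 were Usp39, Cyb5r3 and Zfyve26. Usp39 was at 20.5 and 27.4 CPM in p53R248W/+ and 29.9 and 25.3 CPM in WT, 0.00961 from Trp53 in log2 units. Cyb5r3 was at 42.8 and 57.2 CPM in p53R248W/+ and 62.1 and 52.3 CPM in WT, at a difference of 0.00974. Zfyve26 was at 58.0 and 80.1 CPM in p53R248W/+ and 84.0 and 72.6 CPM in WT, at a difference of 0.0207. All 3 shared the low p53R248W/+ replicate 1 and the high WT replicate 1 of Trp53.

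**Figure D3:**
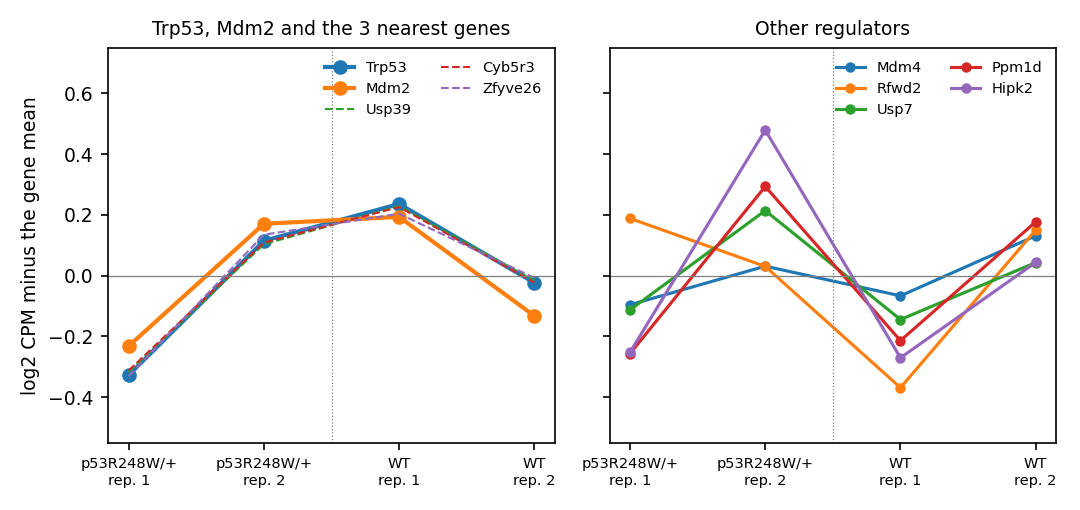
log2 CPM of each gene minus its mean over the 4 libraries, with p53R248W/+ left of the dotted line and WT right of it; lines join the points of 1 gene and imply no order of the libraries. Trp53 and Mdm2 (left, solid) run together with the 3 nearest genes (dashed), while Mdm4, Usp7, Ppm1d and Hipk2 (right) are lower in replicate 1 of both genotypes.

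The balance between a regulator and Trp53 within a library does not depend on library scaling, and it was compared as a ratio of RPKM. Mdm2 stood at 0.368 and 0.359 times Trp53 in p53R248W/+ and at 0.335 and 0.320 times in WT. Both p53R248W/+ libraries were above both WT libraries, with a difference of 0.15 in mean log2 ratio that stayed between 0.12 and 0.18 when single libraries were left out. Usp7 was at 0.400 and 0.370 times Trp53 in p53R248W/+ and 0.265 and 0.361 times in WT, and Hipk2 at 0.213 and 0.260 times in p53R248W/+ and 0.142 and 0.212 times in WT. Neither overlapped between genotypes, although the nearest libraries almost touched. Their differences in mean log2 ratio were 0.31 and 0.44, and they were 0.09 and 0.15 without WT replicate 1. Of all 13295 other tested genes, 29.7% had a ratio to Trp53 that did not overlap between genotypes, 21.6% with p53R248W/+ higher, and Trp53 was itself lowest in p53R248W/+ replicate 1 and highest in WT replicate 1. The 3 ratios share the Trp53 count of each library, so they are not separate observations.

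Mdm4 was at 0.763 and 0.614 times Trp53 in p53R248W/+ and at 0.527 and 0.724 times in WT, and the genotypes overlapped. Rfwd2 (0.190 to 0.288 times Trp53 in p53R248W/+, 0.133 to 0.227 in WT) and Ppm1d (0.136 to 0.147 in p53R248W/+, 0.0951 to 0.149 in WT) overlapped as well. Mdm4 was at 2.07 and 1.71 times Mdm2 in p53R248W/+ and at 1.58 and 2.26 times in WT. In a two-sided exact permutation test with 2 libraries per genotype the smallest possible p is 0.333, so none of the 7 ratios could pass. Mdm2, Usp7 and Hipk2 to Trp53 reached that p (0.777 after Benjamini-Hochberg adjustment over the 7), and the other exact p-values were 0.667 or 1.

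**Figure D4:**
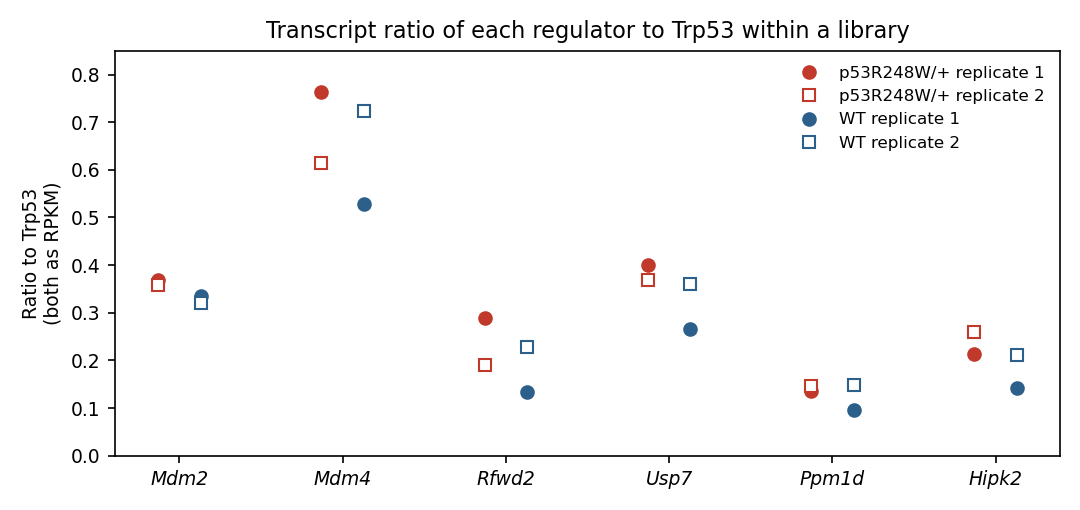
Ratio of each regulator to Trp53 within a library, both in RPKM, on a linear axis from 0; red marks are p53R248W/+ libraries, blue marks WT libraries, circles replicate 1 and open squares replicate 2. The Mdm2 ratio spans 0.320 to 0.368 over the 4 libraries, and the p53R248W/+ marks lie above the WT marks for Mdm2, Usp7 and Hipk2, as they do for 21.6% of all other tested genes.

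The wider set of p53 regulators was described with 8 lists of other genes, 96 in all, of which 95 had a row and 89 were tested. None of the 89 passed over all genes in the edgeR quasi-likelihood test, while DESeq2 called 1 of them, Cdkn1a. In edgeR 3 had an unadjusted p under 0.05 (3.37%, beside 5.87% of all tested genes), and the libraries did not overlap for 34 (38.2%, beside 33.6%). The log2 fold change was positive for 40 and negative for 49, with a median of -0.07. Leaving out 1 library moved the median of each of the 8 lists by more than 1.5 times and turned the direction of 4, so the medians below come with their range over those fits. The lists were chosen with earlier results of these data known.

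Kinases that phosphorylate p53 or Mdm2 lay on both sides of 0, with 10 of 17 positive and a median of 0.06, which ran from -0.06 without p53R248W/+ replicate 2 to 0.15 without WT replicate 2 (-0.03 without WT replicate 1). Atm, the kinase that signals DNA double-strand breaks, was at 338 and 422 CPM in p53R248W/+ and 336 and 430 CPM in WT, and its log2 fold change of -0.01 ± 0.18 (SE) turned with the library left out, from -0.18 to 0.18. Chek2, the kinase that Atm activates, was at 33.1 and 55.7 CPM in p53R248W/+ and 21.7 and 36.2 CPM in WT, so the genotypes overlapped. The log2 fold change of Chek2 was 0.59 ± 0.41 (SE; adjusted p = 0.855, edgeR quasi-likelihood test). It ran from 0.19 to 1.02 with 1 library left out. Hipk1, a close relative of Hipk2, was at 876 and 899.8 CPM in p53R248W/+ against 719 and 754 CPM in WT and did not overlap (log2 fold change 0.27 ± 0.13, SE; adjusted p = 0.824, edgeR quasi-likelihood test). Csnk1d, a casein kinase gene, lay the other way at 149 and 167 CPM in p53R248W/+ against 231 and 184 CPM in WT.

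All 4 phosphatase genes of the list, which leaves out Ppm1d (log2 fold change 0.03), had negative values. Their median of -0.41 ran from -0.68 without WT replicate 2 to -0.18 without WT replicate 1 (-0.27 without p53R248W/+ replicate 1). Ppp2ca, a catalytic subunit of protein phosphatase 2A, was at 159.7 and 161 CPM in p53R248W/+ and 232 and 197 CPM in WT (log2 fold change -0.42 ± 0.20, SE; unadjusted p = 0.0484, adjusted p = 0.824, edgeR quasi-likelihood test). Ppp1ca, a catalytic subunit of protein phosphatase 1, was at 79.7 and 75.5 CPM in p53R248W/+ and 140.3 and 63.7 CPM in WT, and its log2 fold change of -0.39 was 0.29 without WT replicate 1.

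Among ubiquitin ligases other than Mdm2 and Rfwd2, 9 of the 11 tested were positive, with a median of 0.13 that was 0.06 without WT replicate 2 and 0.08 without WT replicate 1. Trim24 was at 97.6 and 57.3 CPM in p53R248W/+ and 56.0 and 47.8 CPM in WT, and Trim28, a corepressor that works with Mdm2, at 208 and 206 CPM in p53R248W/+ and 285 and 239 CPM in WT. Of the 8 tested deubiquitinases other than Usp7 (log2 fold change 0.10), 7 were negative. Their median of -0.18 was -0.30 without p53R248W/+ replicate 2. Usp2 had 26 and 24 counts in p53R248W/+ and 224 and 34 counts in WT, so its unadjusted p of 0.0424 (adjusted p = 0.824, edgeR quasi-likelihood test) rested on WT replicate 1, and its log2 fold change was -2.27 with that library and -0.36 without it. Usp10, which removes ubiquitin from p53, was at 67.2 and 78.4 CPM in p53R248W/+ and 113 and 76.2 CPM in WT, and its log2 fold change of -0.39 was -0.07 without WT replicate 1.

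Of the inhibitors of Mdm2, 7 of 9 were tested, 3 positive and 4 negative, with a median of -0.07 that ran from -0.15 without WT replicate 2 to 0.05 without WT replicate 1, and was 5.63e-05 without p53R248W/+ replicate 2. Rpl5, a ribosomal protein that binds Mdm2 when ribosome assembly fails, was at 727 and 669.5 CPM in p53R248W/+ and 781 and 757 CPM in WT, and Gnl3, a nucleolar protein that binds Mdm2, at 157 and 170.0 CPM in p53R248W/+ and 159.5 and 133 CPM in WT. Cdkn2a, the locus of the Mdm2 inhibitor ARF, had 0 counts in all 4 libraries, which allows up to 0.202 to 0.248 CPM by counting error alone. Rpl26, a ribosomal protein gene that every cell uses, was also listed at 0 in all 4, so a 0 in this table need not mean a silent gene. Ribosomal protein genes have many processed copies, but Rpl5 of the same list was well counted. The reason for the 0 of Rpl26 was not tested.

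Of 15 genes for acetylation and methylation of p53, 7 were positive and 8 negative. Their median was -0.04 with all libraries, 0.13 without p53R248W/+ replicate 1 and 0.10 without WT replicate 1. Leaving out p53R248W/+ replicate 2 gave -0.11 and leaving out WT replicate 2 gave -0.06. Prmt5, an arginine methyltransferase, was at 58.9 and 61.4 CPM in p53R248W/+ and 84.0 and 90.9 CPM in WT, and Kat5, an acetyltransferase, at 56.7 and 38.2 CPM in p53R248W/+ and 31.8 and 30.9 CPM in WT. Their adjusted p-values were 0.824 and 0.835 in the edgeR quasi-likelihood test, and in both the p53R248W/+ and WT libraries did not overlap. Of the 8 tested genes for p53 relatives and cofactors 3 were positive. Their median of -0.11 became 0.19 without WT replicate 2 and 0.0081 without WT replicate 1. It was -0.05 when p53R248W/+ replicate 1 was left out and -0.20 when p53R248W/+ replicate 2 was. Trp53bp1, which acts at DNA breaks, was at 145 and 147 CPM in p53R248W/+ and 164 and 162 CPM in WT, and the cofactor gene Ttc5 at 83.0 and 64.1 CPM in p53R248W/+ and 50.4 and 58.2 CPM in WT. Trp73 had no count in any library and Trp63 had 15 counts in WT replicate 2 and none elsewhere.

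Of 19 tested p53 target genes outside the 7, 12 were negative and 7 positive, with a median of -0.22 that was -0.04 without WT replicate 2. Cdkn1a, the cell cycle inhibitor p21, had the smallest p of the list, at 16.8 and 15.6 CPM in p53R248W/+ against 74.3 and 39.9 CPM in WT, a log2 fold change of -1.81 ± 0.44 (SE; unadjusted p = 6.80e-04, adjusted p = 0.824, edgeR quasi-likelihood test; adjusted p = 0.0492 in DESeq2). Its 95% interval ran from -2.74 to -0.89. For Mdm2 and Ppm1d, which are also p53 targets, the log2 fold changes of -0.06 and 0.03 had 95% intervals from -0.52 to 0.39 and from -0.63 to 0.70. Cdkn1a is the extreme of the list by p, though not by fold change, and does not stand for p53 targets as a group. Mdm2 and Ppm1d were therefore not tested against it. Btg2, an antiproliferative target, was at 76.1 and 63.5 CPM in p53R248W/+ and 122 and 83.3 CPM in WT, with a log2 fold change of -0.55 that was -0.25 without WT replicate 1.

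**Figure D5:**
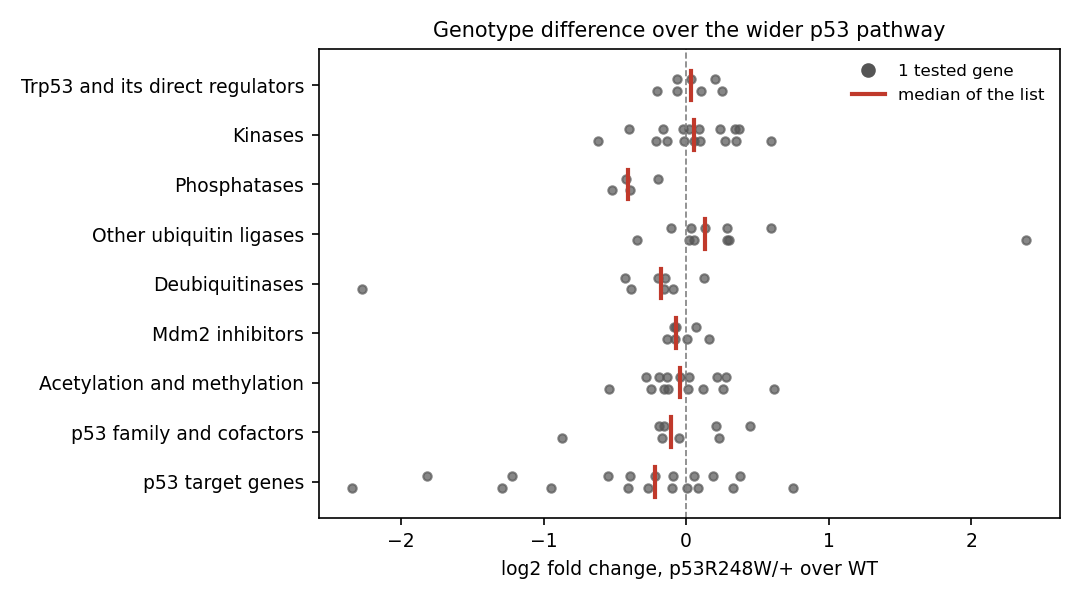
log2 fold change of p53R248W/+ over WT for each tested gene (grey points) of the 7 genes and of the 8 pathway lists, with the list median as a red bar. The medians lie between -0.41 for the phosphatases and 0.13 for the other ubiquitin ligases, and that of Trp53 and its direct regulators is 0.03. Each list median moved by more than 1.5 times when 1 library was left out, to between -0.68 and -0.18 for the phosphatases and between 0.06 and 0.15 for the ligases.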

How the data were processed

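The authors deposited raw read counts per gene symbol, with exon coordinates and summed exon length, for 4 LSK libraries of mice aged 13 to 15 months. The tools were STAR 2.7.10a, featureCounts from Subread 2.0.3, FastQC 0.11.5 and edgeR 3.40.2, with build mm10, per the submitters' processing notes. The sources used here do not give strandedness or the treatment of multi-mapping reads. Genotypes and replicate numbers came from the labels.

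Genes were filtered with filterByExpr (minimum count 10, minimum total 15), scaled by TMM and tested in R 4.3.3 by the edgeR 4.0.16 quasi-likelihood method (legacy=FALSE, robust=TRUE). The model held genotype alone, with Benjamini-Hochberg adjustment over 13296 genes. A 0 count was read as up to 3 counts, a floor that covers counting error only. RPKM used the deposited exon length. The fit was tested on simulated counts. Alternatives were median-ratio and total-count scaling, 2 filters, DESeq2 1.42.0, limma-voom (3.58.1), the replicate number as a block, each library left out, and, chosen after seeing the data, the legacy quasi-likelihood method and M21 exon lengths. The share of all genes whose ratio to Trp53 separated was also added then. Copies were sought with BLAST 2.17.0 (at least 300 bases and 80% identity).

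The 7 genes and all lists were chosen with earlier results of these data known. Named genes were the 7, the 3 nearest to Trp53 in pattern at 20 CPM or more, the 2 of each pathway list with the smallest unadjusted p at 5 CPM or more, and Cdkn2a, Atm, Chek2 and Cdkn1a. Rpl26, Trp63 and Trp73, given for their 0 counts, and the markers and gene copies were named after their values were seen. Symbols without a row, not analysed here, were Synvn1 and Ly6g.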

Additional observations from a re-analysis of the deposited data

How the results depend on the processing

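None of the 7 genes passed an adjusted p of 0.05 under any alternative, and the lowest adjusted p over all of them was 0.643. Under the 8 alternatives that kept all libraries, each of the 7 kept its direction, and Trp53 ran from -0.23 to -0.20. With the replicate block Trp53 was at -0.21, and the block also called 0 genes. The labels do not say that the number marks a shared origin, and the deviations of same-numbered libraries correlated at -0.0178. DESeq2 called 6 genes, none among the 7, where edgeR called 0 with 780 at an unadjusted p under 0.05. Leaving out 1 library gave 0 to 1 called genes, the 1 without p53R248W/+ replicate 2. In those fits the lone library of a genotype was assumed to vary like the 2 of the other genotype.

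Leaving out single libraries turned the direction of all 7 genes at least once. The log2 fold changes ran from -0.44 to 0.0023 for Trp53, -0.27 to 0.13 for Mdm2, -0.16 to 0.043 for Mdm4, -0.036 to 0.49 for Rfwd2, -0.066 to 0.26 for Usp7, -0.25 to 0.30 for Ppm1d and -0.15 to 0.58 for Hipk2. Of the 18 other genes tested for this, 2 turned: Ppp1ca ran from -0.84 to 0.29 and Atm from -0.18 to 0.18. Most of the 18 were named for the smallest unadjusted p of their list in these same libraries, which favours a kept direction. They are therefore no background for the 7, and the share of all tested genes that turned was not counted. The differences in log2 ratio ran from -0.080 to 0.38 for Mdm4 to Trp53, from -0.075 to 0.57 for Ppm1d to Trp53 and from -0.27 to 0.26 for Mdm4 to Mdm2. The Cdkn1a call was present only in DESeq2 (log2 fold change -1.82). Leaving out 1 library moved the median of all 8 pathway lists by more than 1.5 times and turned 4 of them: those of the kinases, the Mdm2 inhibitors, acetylation and methylation, and the family and cofactors. The cause of these changes was not tested. The lowest count among the 7 genes was 764.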
